A study of Mus musculus with 8 samples.

Results

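The nuclear-encoded genes of the mitochondrial respiratory chain were followed in renal cortex, the outer part of the kidney, in wild-type mice of the C57Bl6/J strain on a high fat diet or on a control diet. They were taken by symbol, as every gene of the count table whose symbol starts with Nduf, Uqcr, Cox4, Cox5, Cox6, Cox7, Cox8 or Atp5, or that is Sdha, Sdhb, Sdhc, Sdhd or Cyc1. This gave 92 of 23504 gene symbols. By complex, 38 belonged to complex I, 4 to complex II, 9 to complex III, 18 to complex IV and 15 to complex V. The remaining 8 carry such a symbol but encode no structural subunit: the assembly factors Ndufaf1 to Ndufaf6, and Atp5s and Atp5sl. Symbols are those of the deposited table, and some have since been renamed. Each diet had 4 libraries, A, B, F and G on high fat and I, J, L and M on control; the mice went on the diets at 6 weeks of age, stayed on them for 9 weeks and were 15 weeks old at harvest. No label says that each library is a separate mouse, so a p-value here measures the spread between libraries. The study set out to find cortical genes whose expression differs with the diet.

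The respiratory chain sits in the inner mitochondrial membrane. Complex I takes electrons from NADH and complex II takes them from succinate. Both pass them through ubiquinone to complex III, cytochrome c and complex IV, where oxygen is reduced, and complex V, the ATP synthase, uses the resulting proton gradient to make ATP. Most subunits are encoded in the nucleus and imported, a few are encoded in mitochondrial DNA, and assembly factors that do not stay in the finished enzyme help to build each complex. The renal cortex is rich in mitochondria, because the proximal tubule and the thick ascending limb spend much ATP on sodium transport. The 13 protein-coding genes of mitochondrial DNA were not analysed here.

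Total expected counts per library were 23503593 to 30781585. Rn45s, the ribosomal RNA precursor, took 1.23% to 13.3% of them in 7 libraries and 50.3% in control J, which kept 13993652 counts without it, against 21793784 (high fat B) to 30403685 (control M) in the others. All values below were therefore normalised without Rn45s. Levels are given as CPM, counts scaled to 1000000 per library after TMM adjustment, and a gene counts as called where edgeR's quasi-likelihood test, adjusted over all genes by Benjamini-Hochberg, gave a p under 0.05. The members together took 2.17% (control J) to 2.47% (control L) of the counts without Rn45s.

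Messenger RNA of the respiratory chain was nearly level between the diets. Summed over all members, it stood at 23499 ± 1050 CPM (SD, n = 4) on high fat and 23428 ± 685 CPM (SD, n = 4) on control. Of the 92 members, 88 passed the filter on low counts and were tested; Cox4i2, Cox7b2, Cox8b and Cox8c did not. Their median log2 fold change, high fat over control, was -0.0075, with 42 above 0 and 46 below, beside a median of -0.0023 over all 14711 genes tested. Calls were made for 3 members, or 3.41% of the 88: Ndufa1 and Ndufv3, both accessory subunits of complex I, were higher on high fat, and Ndufaf4, an assembly factor of complex I, was lower. Among all tested genes 9.99% were called, 4.86% higher and 5.13% lower. No subunit of complexes II to V was called. DESeq2's Wald test and limma-voom called the same 3 members, where they called 13.3% and 9.87% of all genes. Without control J only Ndufaf4 was called, beside 5.40% of all genes, and without both control J and high fat G again only Ndufaf4, beside 2.83%. These are levels in bulk tissue, in which fewer cells of a type and less RNA per cell cannot be told apart.

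The near-level values came with narrow intervals. The 95% interval of the change lay within 1.2-fold in either direction for 68 of the 88 members, within 1.3-fold for 83 and within 1.5-fold for 85. The median standard error of a log2 fold change was 0.062 for the members and 0.093 for all tested genes. At an unadjusted p under 0.05, 7 members were higher and 3 lower, where 27.4% of all genes passed. The 4 values of one diet lay wholly above or below those of the other for 9 members, 6 higher and 3 lower, beside 17.5% of all genes (8.31% higher and 9.20% lower). The higher ones were Ndufa1, Ndufa2, Ndufa10, Ndufa13, Ndufs6 and Ndufv3, and the lower ones Ndufa5, Ndufb10 and Ndufaf4. All 9 belong to complex I or to its assembly, and complex I alone holds 38 of the 88 tested members. Of those 38, 6 lay wholly higher and 2 wholly lower. Whether complex I differs in this from all genes was not tested.

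**Figure D1:**
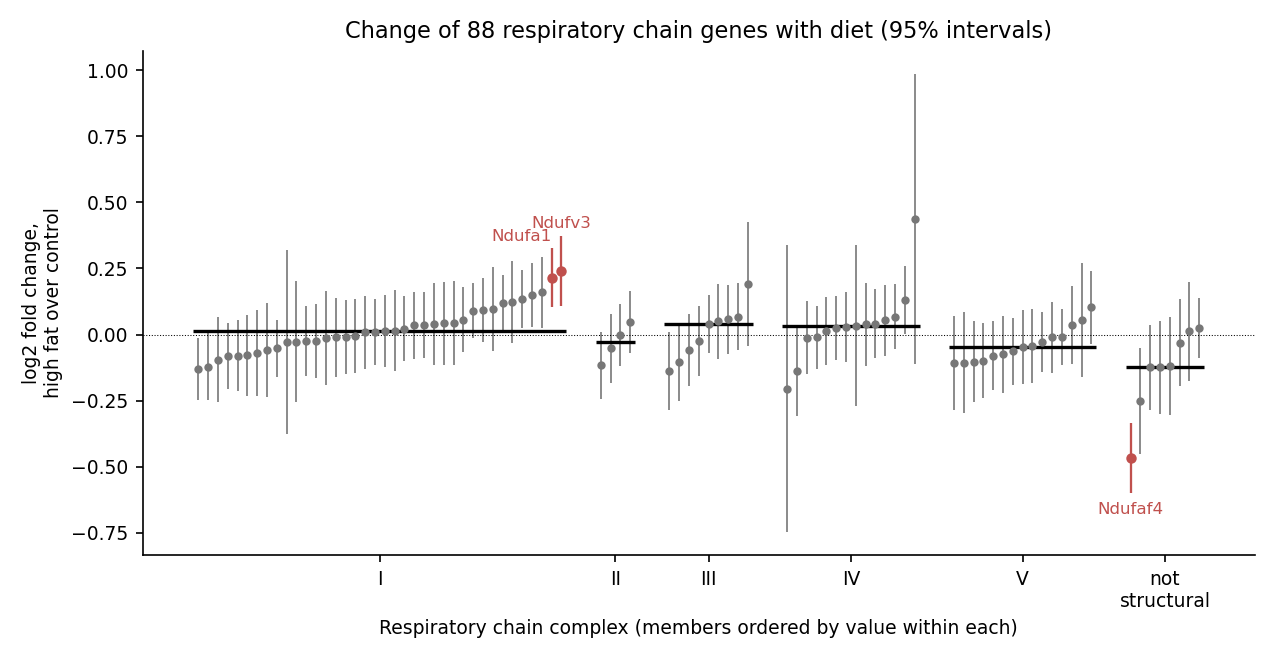
Log2 fold change (high fat over control) of the 88 tested members on the vertical axis, grouped by complex on the horizontal axis and ordered by value within each; points are estimates, vertical lines 95% intervals, horizontal bars the group's median, and the 3 called genes are in red with their names. Most points lie close to 0, Ndufaf4 stands below the rest at -0.47, and the widest intervals belong to Cox6a2 and Cox6b2, which were near 1 to 2 CPM.

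Ndufaf4 had the clearest change. It encodes a small mitochondrial protein that works with Ndufaf3 in the early steps of complex I assembly, and lies on chromosome 4 at 24898083 to 24905001 (GRCm38). Its level was 54.9, 51.0, 55.3 and 52.4 CPM in high fat A, B, F and G, and 74.9, 79.8, 73.4 and 67.8 CPM in control I, J, L and M. Every high fat library was below every control library, and the spread within each diet was small beside the gap. The level fell to 0.723 of control (95% interval 0.659 to 0.793), a log2 fold change of -0.47 ± 0.061 (SE) with an adjusted p of 0.00214 in edgeR. It was called in each of the 8 fits that leave out 1 library, with adjusted p-values of 0.00178 to 0.00771 and log2 fold changes of -0.51 to -0.43. With control J and high fat G both left out it was -0.42, at an adjusted p of 0.0197 in edgeR. In the authors' deposited table by symbol, the ratio for Ndufaf4 was 0.724.

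The other 7 members that are not structural subunits were not called. Ndufaf5, a methyltransferase-like protein that modifies the complex I subunit Ndufs7, was at 13.6, 12.8, 11.3 and 11.1 CPM on high fat and 14.4, 12.8, 15.5 and 15.0 CPM on control. The lowest control library, J, lay among the high fat values, and the log2 fold change was -0.25 ± 0.092 (SE) with an adjusted p of 0.106 in edgeR. Ndufaf3, the partner of Ndufaf4, had a log2 fold change of -0.12 and an adjusted p of 0.299 in edgeR. Ndufaf1, Ndufaf2 and Ndufaf6, also assembly factors of complex I, had 0.01, -0.12 and -0.03. Atp5s, named as a coupling factor of ATP synthase, had -0.12, and Atp5sl, now named Dmac2, had 0.03. The median over the 8 was -0.12, with 6 below 0. Their summed level, to which Ndufaf4 and Atp5sl gave the most, was 204 ± 4.58 CPM (SD, n = 4) on high fat and 230 ± 7.48 CPM (SD, n = 4) on control. Ndufaf4 made most of that gap: the other 7, summed after its value was seen, stood at 151 ± 4.75 and 156 ± 4.13 CPM (SD, n = 4), and Atp5sl was at 54.5 and 53.7 CPM.

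The promoters of the 3 called members and of Ndufaf5 are shown. Ndufaf5, the assembly factor with the next lowest change, was not called and was picked after its value was seen. Each is 250 bases before and 50 after the start in RefSeq (GRCm38.p6), 5′ to 3′ on the gene's strand: Ndufaf4 at chr4:24897833-24898132 (plus), Ndufaf5 at chr2:140170396-140170695 (plus), Ndufa1 at chrX:37191189-37191488 (minus) and Ndufv3 at chr17:31519865-31520164 (plus). Capitals mark the palindromic 10-base site of nuclear respiratory factor 1 (NRF1), a known activator of respiratory chain genes.
Ndufaf4: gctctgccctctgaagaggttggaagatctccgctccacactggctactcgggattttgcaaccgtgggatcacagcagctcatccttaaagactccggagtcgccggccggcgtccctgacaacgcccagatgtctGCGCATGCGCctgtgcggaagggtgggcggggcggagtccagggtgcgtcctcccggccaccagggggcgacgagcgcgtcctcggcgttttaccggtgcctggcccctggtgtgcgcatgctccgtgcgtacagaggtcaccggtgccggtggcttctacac
Ndufaf5: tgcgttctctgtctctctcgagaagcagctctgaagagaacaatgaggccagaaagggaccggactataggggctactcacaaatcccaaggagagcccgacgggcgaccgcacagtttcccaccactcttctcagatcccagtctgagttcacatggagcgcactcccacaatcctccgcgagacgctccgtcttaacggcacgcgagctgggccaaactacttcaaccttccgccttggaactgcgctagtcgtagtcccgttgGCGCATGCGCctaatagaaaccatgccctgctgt
Ndufa1: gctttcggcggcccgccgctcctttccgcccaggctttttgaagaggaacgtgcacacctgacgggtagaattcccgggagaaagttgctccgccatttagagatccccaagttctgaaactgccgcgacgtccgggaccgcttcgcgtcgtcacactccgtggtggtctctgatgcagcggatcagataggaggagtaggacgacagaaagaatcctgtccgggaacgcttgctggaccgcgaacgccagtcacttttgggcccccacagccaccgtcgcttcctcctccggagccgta
Ndufv3: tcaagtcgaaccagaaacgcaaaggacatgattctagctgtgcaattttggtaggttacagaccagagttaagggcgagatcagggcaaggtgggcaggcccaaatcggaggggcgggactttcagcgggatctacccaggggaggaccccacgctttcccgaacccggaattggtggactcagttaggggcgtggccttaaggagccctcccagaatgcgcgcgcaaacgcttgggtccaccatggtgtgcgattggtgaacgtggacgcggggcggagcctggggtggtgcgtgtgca
The site covers bases 138 to 147 of the Ndufaf4 window, upstream of the start, and bases 267 to 276 of the Ndufaf5 window, past the start. It is not in the windows of Ndufa1 and Ndufv3, nor in those of the assembly factors Ndufaf1, Ndufaf2 and Ndufaf3. Ndufaf6 had no window. Subunits of several complexes had the site (listed below), so it does not divide assembly factors from subunits.

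RefSeq gave a promoter window for 75 of the 92 members, and 4 motifs tied to respiratory chain genes were searched on both strands. The NRF1 site in capitals was in 7 of the 75 (9.33%): Atp5g2, Atp5k, Cox6a1, Ndufa11, Ndufaf4, Ndufaf5 and Uqcrc1. It was in 1.07% of the windows of all 27025 genes that have one, which include genes not tested here. Of these 7, only Ndufaf4 was called, and their median log2 fold change was -0.08. The ETS core CCGGAAG, read by GABP (nuclear respiratory factor 2), was in 17 (22.7%) beside 9.93% of all windows. The YY1 site AAGATGGC was in 11 (14.7%) beside 3.19%, and the estrogen-related receptor site TCAAGGTCA in 2 (2.67%) beside 0.466%. No member with an ETS, YY1 or estrogen-related receptor match was called, where 3.41% of tested members and 9.99% of all tested genes were. With so few calls among the members, these counts cannot tell the motifs apart. A match is a string of letters here, not evidence of binding.

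In complex I, 2 of 38 members (5.26%) were called higher and none lower, where 4.86% of all genes were called higher and 5.13% lower. Its log2 fold changes were above 0 for 21 members and below 0 for 17. Ndufa1, encoded on the X chromosome at 37187588 to 37191163 (GRCm38), is a short membrane-anchored accessory subunit needed for assembly. It was at 110.3, 115.2, 104.3 and 104.1 CPM in high fat A, B, F and G, and 94.2, 92.8, 94.7 and 92.2 CPM in control I, J, L and M. The control libraries lay within a narrow band and all 4 high fat libraries above it. The rise was 1.16-fold (95% interval 1.07 to 1.25), a log2 fold change of 0.21 ± 0.051 (SE) with an adjusted p of 0.0252 in edgeR. The call was lost without high fat A (adjusted p 0.0613), high fat B (0.0542), control I (0.0600) or control J (0.0568), and with control J and high fat G both out (0.0795), though the log2 fold change stayed between 0.18 and 0.23 in those edgeR fits. In the authors' deposited table by symbol the ratio was 1.16.

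Ndufv3, on chromosome 17 at 31520115 to 31531331 (GRCm38), encodes a small accessory subunit of the NADH-oxidising module. It was at 183.4, 199.9, 178.5 and 172.3 CPM on high fat and 162.0, 146.8, 150.9 and 160.7 CPM on control, so the diets did not overlap. High fat B was the highest library and control J the lowest. The rise was 1.18-fold, a log2 fold change of 0.24 ± 0.060 (SE, 95% interval 0.11 to 0.37) with an adjusted p of 0.031 in edgeR. The call held in 2 of the 8 fits with 1 library left out, without high fat G (0.0377) and without control M (0.0365). Without high fat A, B or F or control I, J or L the adjusted p in edgeR was 0.0640, 0.0625, 0.0574, 0.0513, 0.0760 and 0.0732, in that order. In limma on log2(rescaled FPKM + 0.1) it was 0.0543, with a log2 fold change of 0.28, and in the authors' deposited table by symbol the ratio was 1.19.

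**Figure D2:**
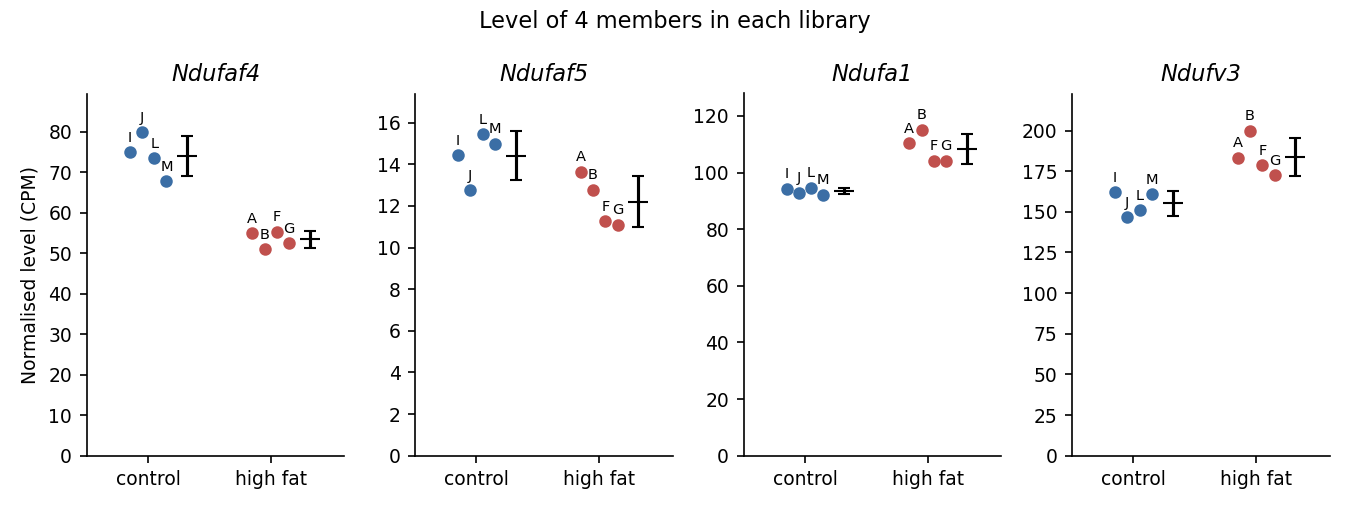
Normalised level in CPM (vertical axis, from 0) of Ndufaf4, Ndufaf5, Ndufa1 and Ndufv3 in each library, with the 4 control libraries in blue and the 4 high fat libraries in red, lettered; black bars are the mean and SD of the 4. Ndufaf4 lies at 51.0 to 55.3 on high fat and 67.8 to 79.8 on control, Ndufa1 and Ndufv3 are higher on high fat with no overlap, and the Ndufaf5 values overlap.

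The 7 nuclear core subunits of complex I, which hold the flavin and the iron-sulfur clusters, were not called, and their median log2 fold change was 0.01. Ndufv1, which binds NADH and flavin, had the largest value, 0.16 ± 0.061 (SE) with an adjusted p of 0.117 in edgeR: 390.9, 380.2, 366.8 and 355.9 CPM on high fat and 337.2, 305.0, 334.4 and 360.0 CPM on control, where control M lay among the high fat values. Ndufs1 was at 0.01, Ndufs3 and Ndufs8 both at -0.01, Ndufs7 at 0.035 and Ndufv2 at -0.08. The 31 other members under a complex I symbol, mostly accessory subunits that surround the core, had a median of 0.01 and held both calls. They include Ndufa4 and Ndufa4l2, which were grouped by symbol. Ndufb10, an accessory subunit of the membrane arm, was the lowest of complex I at -0.13 (adjusted p 0.143 in edgeR), with 119.3 to 122.3 CPM on high fat and 126.7 to 144.3 CPM on control.

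Complex II, succinate dehydrogenase, also belongs to the TCA cycle, and its 4 subunits had a median log2 fold change of -0.03 with no call. Sdha, the flavoprotein that oxidises succinate, was at 812.6, 910.2, 856.9 and 879.4 CPM on high fat and 830.2, 854.2, 824.4 and 837.0 CPM on control. The high fat range enclosed the control range, and the log2 fold change was 0.05, the highest of the complex. Sdhd, a membrane anchor, was the lowest at -0.12 (adjusted p 0.222 in edgeR), with 260.1 to 285.6 CPM on high fat and 267.8 to 305.8 CPM on control. Sdhb, the iron-sulfur subunit, was at -0.05 and the other anchor, Sdhc, at -0.0019. All 4 intervals lay within 1.2-fold.

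Complex III passes electrons from ubiquinol to cytochrome c, and none of its 9 members was called (median 0.04). The subunits with redox centres, Cyc1 (cytochrome c1) and Uqcrfs1 (the Rieske iron-sulfur protein), were at 0.07 and 0.06. The core proteins Uqcrc1 and Uqcrc2, which face the matrix, were at 0.04 and -0.10, with 482 ± 30.4 CPM on control and 449 ± 30.0 CPM on high fat (SD, n = 4) for Uqcrc2. Uqcrq, a small subunit, had the highest value of the complex at 0.19 ± 0.107 (SE), with an adjusted p of 0.277 in edgeR. Its control libraries were wide apart, 115.6, 133.0, 93.9 and 92.2 CPM in I, J, L and M, and enclosed the high fat values of 113.1 to 129.0 CPM. Uqcrb, another small subunit, was the lowest at -0.14 (adjusted p 0.206 in edgeR).

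Complex IV, cytochrome c oxidase, had a median log2 fold change of 0.03 over 14 tested members, and none was called. Cox4i1, the subunit bound early around the catalytic core, was at 657.0, 684.7, 597.6 and 626.2 CPM on high fat and 648.1, 648.5, 641.8 and 600.7 CPM on control, a log2 fold change of 0.01. Cox5a and Cox5b, on the matrix side, were at -0.01 and 0.03. Cox6a1 was at 403.8 to 446.3 CPM on high fat and 369.2 to 417.9 CPM on control, a log2 fold change of 0.13 with an unadjusted p of 0.0473 and an adjusted p of 0.177 in edgeR, the only member of complexes II to V under an unadjusted 0.05. The extremes of the complex were Cox6b2 at 0.44 and Cox6a2 at -0.21, with adjusted p-values of 0.287 and 0.638 in edgeR. Both are tissue-restricted isoforms, of testis and of striated muscle, and both stood near 1 to 2 CPM, so their intervals (0.926-fold to 1.98-fold, and 0.595-fold to 1.26-fold) were wide.

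Complex V had the lowest median of the 5 complexes, -0.05, with 12 of 15 members below 0, and no call. Atp5b, the catalytic beta subunit, was at 3496, 3534, 3234 and 3237 CPM on high fat and 3368, 3029, 3438 and 3337 CPM on control, a log2 fold change of 0.04. Atp5a1, the alpha subunit, was at -0.04 and Atp5c1, the gamma subunit of the central stalk, at -0.10 (adjusted p 0.377 in edgeR). The highest and lowest were Atp5d, the delta subunit of the central stalk, at 0.10 and Atp5j, of the peripheral stalk, at -0.11, and each overlapped between the diets. All 15 intervals lay within 1.3-fold. The members of a complex share the same 8 libraries, so a common small offset, such as 12 of 15 below 0, is not 12 separate observations.

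Library by library, the spread within a diet was larger than the gap between the means of the diets in each of the 5 complexes. The median over the 88 members (log2 CPM, centred on the mean of every gene) was 0.045, 0.053, -0.076 and -0.035 in high fat A, B, F and G, and 0.023, 0.024, 0.040 and -0.081 in control I, J, L and M. High fat F and G and control M were below 0 and the other 5 libraries above it, so the diets overlapped, and the pooled SD within a diet was 0.059. The medians of complexes I, II, III, IV and V each overlapped between the diets. In complex I they ran from -0.050 to 0.075 on high fat and from -0.082 to 0.011 on control, and in complex V from -0.103 to 0.051 and from -0.072 to 0.053. The 8 members that are not structural subunits gave -0.111 to 0.010 on high fat and 0.028 to 0.125 on control, with no overlap; without Ndufaf4 the other 7 gave -0.075 to 0.022 and -0.006 to 0.120, which overlapped. Leaving out 1 library turned the sign of some of the small median log2 fold changes: complex I went from 0.012 to -0.015 without control M and to -0.004 without high fat A or high fat B, complex IV from 0.031 to -0.010 without control M and to -0.003 without high fat A, and complex II from -0.027 to 0.003 without high fat F. The median over all members, -0.0075, was above 0 without control I, control L, high fat F or high fat G, at most 0.024.

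**Figure D3:**
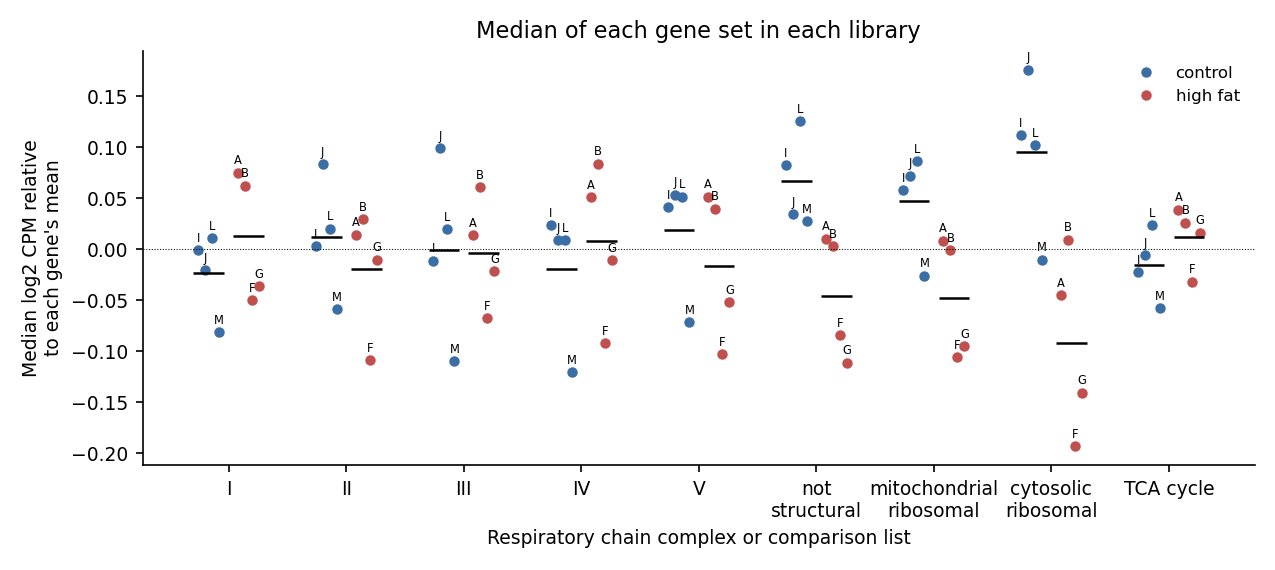
Median, over the genes of each set, of log2 CPM relative to the gene's mean (vertical axis) in each lettered library, with control in blue and high fat in red; black bars are the means of 4 libraries, and sets (horizontal axis) are the complexes, the 8 members that are not structural, and 3 comparison lists. The diets overlap in all 5 complexes, with high fat F and control M low in each, and do not overlap for the members that are not structural, which include Ndufaf4.

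The messages of the respiratory chain are short, and length moved with library. Their median transcript length was 849.5 nt beside 2869.5 nt for all tested genes, and 95.6% of tested genes were longer than that. Short genes were relatively lower in some libraries: the fitted length trend, at its median over the members, was 0.003, 0.021, -0.073 and -0.062 (log2) in high fat A, B, F and G and 0.043, 0.068, 0.051 and -0.022 in control I, J, L and M. With that trend removed in each library, the median log2 fold change of the members was 0.05 (complex I 0.07, III 0.07, IV 0.10, V -0.01), and 6 members were called, where 10.4% of all genes were. Ndufaf4 was at -0.48 (adjusted p 0.00189), Ndufa1 at 0.29 (0.00556) and Ndufv3 at 0.30 (0.0113), and the added calls were Ndufs6 at 0.22 (0.0246), Ndufa13 at 0.18 (0.0314) and Ndufa2 at 0.19 (0.0371), all edgeR. Without the correction these 3 were at 0.15, 0.13 and 0.12 with adjusted p-values of 0.111, 0.108 and 0.149. Each is an accessory subunit of complex I whose exons overlap those of another gene, by 30 nt for Ndufs6 and Mrpl36, 375 nt for Ndufa13 and Tssk6 and 66 nt for Ndufa2 and Tmco6; 31 of the 91 members with a position have such an overlap. Besides Ndufaf4, Ndufa1 and Ndufv3, the authors' deposited table by symbol, which holds 1133 genes, also lists Ndufa2 and Ndufa13. Their ratios there were 1.088 and 1.101. The part of length in the uncorrected values was not tested further.

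Levels were compared between genes per length, as FPKM rescaled so that each library sums to 1e6 without Rn45s. On control, complex V had the highest median, 909, followed by IV (589), III (560), II (557) and I (357), and the 8 members that are not structural subunits stood at 39.6. On high fat the medians were 884, 565, 582, 572, 369 and 34.1 in the same order, so the order of II, III and IV, which lay close together, was not the same on both diets. The median member of each complex stood above 98.2% (complex I) to 99.5% (complex V) of all genes. Atp5b was the most abundant, 3530 ± 355 on control (SD, n = 4) and 3643 ± 73.6 on high fat. Atp5a1 (2091 ± 107), Cox8a (2024 ± 138) and Cox4i1 (1983 ± 79.2) came next on control (SD, n = 4 each) and differed by less than the SD of Cox8a, well below Atp5b. Ndufa4, which bears a complex I name but is counted by many as a subunit of complex IV, was the highest of the 38 under a complex I symbol at 1570 ± 140, and Ndufa4l2, its hypoxia-inducible relative, the lowest at 4.66 ± 0.521. Ndufaf4 was at 40.3 ± 0.761 on control and 29.5 ± 2.08 on high fat (SD, n = 4 each).

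**Figure D4:**
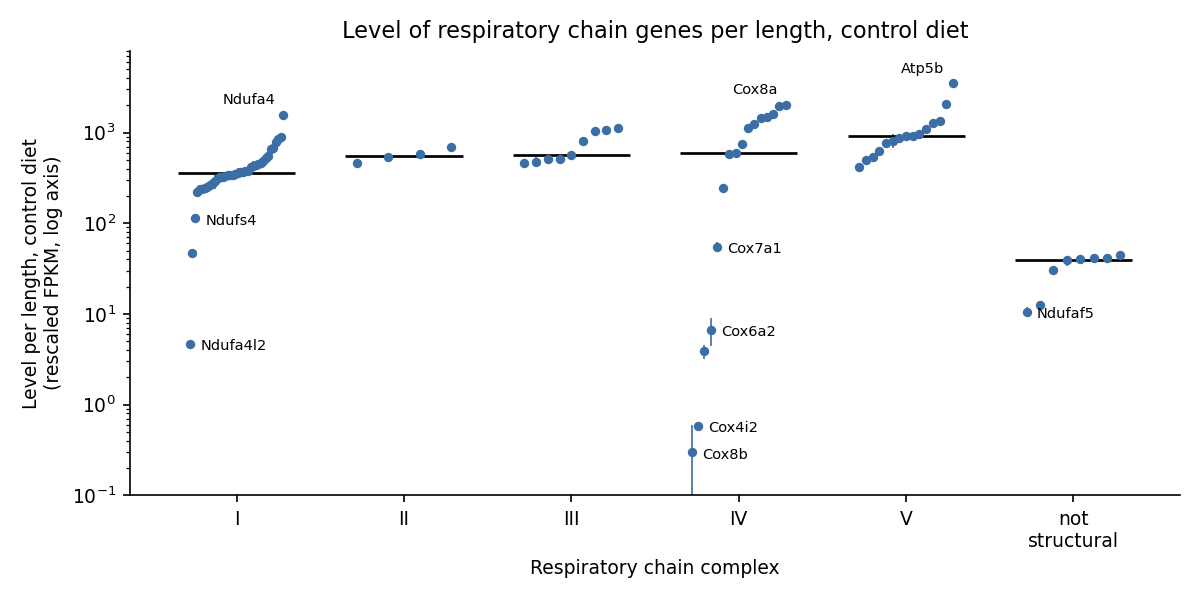
Level per length on the control diet (rescaled FPKM, log axis) of each member, by complex on the horizontal axis; points are the mean of 4 libraries, vertical lines the SD, and black bars the median of the complex, undrawn genes included. Most subunits lie in a band around the medians, Atp5b is highest at 3530, the tissue-restricted isoforms of complex IV lie far below, and Cox7b2 and Cox8c, at 0 counts, are not drawn; the lower SD of Cox8b runs off the axis.

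Isoform choice within complex IV and the ATP synthase c ring differed between the diets by less than 1 percentage point. Cox4i1 made up 99.97% of the summed level of Cox4i1 and the hypoxia-linked lung isoform Cox4i2 on control and 99.98% on high fat, and Cox4i2 had 35 counts over all 8 libraries. Cox6a1, the isoform of most tissues, made up 99.6% ± 0.160 on control and 99.7% ± 0.0509 on high fat (SD, n = 4) beside the muscle isoform Cox6a2, and Cox6b1 made up 99.7% on both beside Cox6b2. Cox8a had 98355 counts over the 8 libraries and the muscle and brown fat isoform Cox8b had 9; Cox8c and Cox7b2 had 0 in all of them. In the Cox7a family, Cox7a2 took 71.5% ± 0.154 on control and 71.9% ± 1.07 on high fat, Cox7a2l, a factor of supercomplex formation, 23.3% ± 0.718 and 22.8% ± 0.808, and the heart and muscle isoform Cox7a1 5.26% ± 0.803 and 5.24% ± 0.622 (SD, n = 4). The genes Atp5g1, Atp5g2 and Atp5g3 encode the same mature c subunit; on control they took 28.7% ± 0.481, 20.2% ± 1.16 and 51.1% ± 0.703, and on high fat 29.2% ± 0.579, 19.6% ± 0.456 and 51.2% ± 0.406 (SD, n = 4).

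Cox7a1, Cox8b and Cox6a2 are abundant in brown fat or striated muscle, and most markers of those tissues were near 0. Ucp1, the uncoupling protein of brown fat, averaged 0.281 CPM on high fat and 0.287 on control, and Cidea 0.118 and 0.0957. Of the 8 brown fat markers 3 passed the filter: Cox7a1 itself, Ppargc1a at 92.9 and 88.0 CPM, and Pdk4, a pyruvate dehydrogenase kinase, which was called higher at 33.8 against 7.09 CPM (log2 fold change 2.27, adjusted p 0.00587 in edgeR). The summed level was 121.7 to 157.9 CPM on high fat and 98.6 to 107.7 CPM on control; without Pdk4, left out after its value was seen, it was 99.5 to 105.6 and 93.3 to 99.9 CPM, and the diets overlapped. Of 9 skeletal muscle markers 2 passed the filter, Mylpf and Pvalb, the latter also a marker of the distal convoluted tubule, at 27.9 and 26.3 CPM. The muscle creatine kinase gene Ckm averaged 0.0117 and 0.0650 CPM. Of 7 heart muscle markers 2 passed the filter and neither was called. Myh6 averaged 1.38 CPM on high fat and 3.52 on control, and Ryr2 7.66 and 6.15. The heart markers summed to 7.60 to 10.7 CPM on high fat and 6.92 to 18.6 CPM on control. Cox7a1 was at 8.89 ± 1.11 CPM on high fat and 8.82 ± 1.64 on control (SD, n = 4).

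Markers of several tubule segments were called lower on high fat. Of 10 markers of the thick ascending limb, a segment rich in mitochondria, 7 fell and none rose (median log2 fold change -0.35), and their summed level was 4736 to 5683 CPM on high fat and 5799 to 6535 CPM on control. Slc12a1, the sodium, potassium and chloride cotransporter of that segment, fell by 0.53 on the log2 scale (adjusted p 0.0118 in edgeR). Of 12 proximal tubule markers 4 rose and 3 fell, with sums of 25955 to 27438 CPM on high fat and 24807 to 27069 CPM on control. In the distal nephron, 2 of 8 markers of the distal convoluted tubule, 3 of 8 of principal cells and 2 of 9 of intercalated cells were called lower. None was called higher, and 5.13% of all genes were called lower. The distal convoluted tubule list was mixed, with 5 of 8 above 0 and a median log2 fold change of 0.04. The medians were -0.30 for principal cells and -0.20 for intercalated cells. No marker of podocytes (7 tested), endothelium (8) or macrophages (8) was called; at an unadjusted p under 0.05 podocyte markers held 1 higher and 2 lower, and the other lists 0. Red cell markers summed to 808.0 to 4194 CPM on high fat and 741.6 to 1837 on control. The part of any of these in the values of the respiratory chain was not tested.

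Most regulators of respiratory chain genes were not called. Ppargc1a, a coactivator and master regulator of mitochondrial biogenesis, was at 92.9 ± 2.99 CPM on high fat and 88.0 ± 2.38 on control (SD, n = 4), which is 0.08 higher on the log2 scale with an adjusted p of 0.324 in edgeR. Esrra, the estrogen-related receptor alpha, was at 0.06, Nrf1 at -0.10, and Tfam, which packs mitochondrial DNA, at 0.01, none of them called. The other estrogen-related receptors went in opposite directions and were not called. Esrrb was at -0.38 (adjusted p 0.0524 in edgeR) and Esrrg at 0.33 (adjusted p 0.0726 in edgeR). Of 17 such regulators 1 was called, 2310042D19Rik (now Perm1), a regulator downstream of Ppargc1a, lower at -0.67 ± 0.169 (SE, adjusted p 0.0313 in edgeR) and at a low level, 5.01 ± 0.800 against 8.11 ± 1.72 CPM (SD, n = 4). Its call was lost in 6 of the 8 fits without 1 library and held without control L or M.

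Assembly factors of the other complexes, counted in the same way, held 1 call. It was Fam36a (now Cox20), a chaperone of a complex IV subunit, lower at -0.28 with an adjusted p of 0.0251 in edgeR (21.8 ± 1.07 and 26.3 ± 1.59 CPM, SD, n = 4), 1 of 20 tested complex IV factors; the call was lost without high fat F (0.0766), high fat G (0.0637), control I (0.0673) or control L (0.0657). None of 14 factors of complexes II, III and V was called, and 1 had an unadjusted p under 0.05. Their medians were -0.04 and -0.06, with 14 of 20 and 12 of 14 below 0.

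Around the chain, single genes of electron and proton transfer changed. Ucp2, an uncoupling protein family carrier of the inner membrane, was at 36.6, 40.0, 31.3 and 60.1 CPM on high fat and 16.5 to 23.3 CPM on control. Every high fat library was higher than every control library, with high fat G the highest, and the rise was 1.07 ± 0.180 (SE) on the log2 scale (adjusted p 0.00657 in edgeR). Suox, sulfite oxidase, which hands electrons to cytochrome c, rose by 0.40 on the log2 scale, to 116.8 ± 6.35 from 88.6 ± 5.58 CPM (SD, n = 4), with an adjusted p of 0.00434 in edgeR. Coq10b, a ubiquinone-binding protein, fell by 0.46 on the log2 scale, to 56.2 ± 3.30 from 77.3 ± 7.80 CPM (SD, n = 4), with an adjusted p of 0.00671 in edgeR. Ucp2, Suox and Coq10b were called in all 8 fits without 1 library. Cycs, cytochrome c itself, was at 552 ± 23.7 and 538 ± 22.5 CPM (SD, n = 4), 0.04 apart on the log2 scale. Of 10 tested genes of cytochrome c and its donors 1 was called, of 13 of coenzyme Q synthesis 1, and of 9 carriers of ADP, phosphate and protons 2, the other being Vdac3, an outer membrane channel, at -0.28 (adjusted p 0.0258 in edgeR), lost in 5 of the 8 fits without 1 library.

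Other mitochondrial gene sets are given for scale. Of 14 TCA cycle genes 1 was called, Idh3g, a regulatory subunit of the NAD-dependent isocitrate dehydrogenase, at 0.23 (adjusted p 0.0377 in edgeR; lost in 6 of the 8 fits without 1 library), and the median was 0.01. Of 24 genes of mitochondrial protein import 2 fell, Timm23 at -0.22 and Timm9 at -0.23 (adjusted p-values 0.0373 and 0.0408 in edgeR; each lost in 6 of the 8 fits), with 21 of 24 below 0. Of 76 mitochondrial ribosomal protein genes 7 fell and none rose (9.21%, median -0.10, 66 below 0), with Mrps6 the lowest at -0.47 (adjusted p 0.0105 in edgeR). Of 89 tested genes with an Rpl or Rps symbol, nearly all cytosolic ribosomal proteins, 16 fell and none rose (18.0%, median -0.19, 87 below 0). The library medians of both ribosomal sets overlapped between the diets, at -0.106 to 0.008 and -0.026 to 0.086 for the mitochondrial set. No test of a difference between these sets and the respiratory chain was made.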

How the data were processed

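RNA of dissected outer renal cortex was sequenced. The labels' protocols name a kit that removes ribosomal RNA, while another label calls the RNA enriched mRNA, so how libraries were enriched is not settled. The submitters' processing notes name the mm10 build, RSEM 1.2.9 and CASAVA 1.8.2. The authors deposited a table of RSEM expected counts by gene symbol, in which reads of similar genes are shared out by likelihood, and a table of FPKM values. They also deposited comparison tables with a ratio (fold) and a posterior probability (a score); no source used here names their tool or says whether counting used strand, so reads of overlapping genes may be mixed.

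Rn45s was removed, counts were rounded, and edgeR 4.0.16 was run in R 4.3.3 (TMM, filterByExpr, quasi-likelihood F test, diet as the only term, all 8 libraries, Benjamini-Hochberg over 14711 genes). The SE is the size of the log2 fold change over the square root of F, and intervals use t at 95%. The edgeR fit was also run on counts simulated from the levels and spread of these data, and no result here rests on that run. Rescaled FPKM is the deposited FPKM over its library's sum without Rn45s, times 1000000. Alternatives were DESeq2 1.42.0, limma 3.58.1 on counts and on log2(FPKM + pseudocount), other filters, thresholds and scalings, removal of the length trend (lowess), and leaving out libraries. Members and lists were chosen with earlier results of these data known. Named genes are the called members, the highest and lowest of each complex, fixed core subunits and isoform families, up to 4 called genes per list and Ppargc1a, Esrra, Nrf1, Tfam, Cycs and Ucp2; other members are named after their values were seen. Positions are from GENCODE M21 and promoters from RefSeq. The values of 1 member are not reported here.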

Additional observations from a re-analysis of the deposited data

Results flagged for a closer look

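Among 86 groups of 4 libraries of the named members, 4 held a library far from the other 3 by Dixon's ratio (the gap to the nearest library over the range, above its 95% critical value), where chance gives about 1 in 20. Control M was low for Atp5c1 at 496 CPM, with the other control libraries at 569 to 573 CPM, and for Cox4i1 at 601 CPM, with the others at 642 to 649 CPM. High fat B was high for Atp5j at 152 CPM, with the others at 134 to 136 CPM. Control J was high for Ndufa4l2 at 2.72 CPM, with the others at 1.94 to 2.05 CPM.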

How the results depend on the processing

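The number of members called lower stayed at 1, Ndufaf4, under every alternative run, while the 2 called higher depended on the fit. DESeq2's Wald test and limma-voom also called 2 higher and 1 lower. The number called higher was 1 in limma on log2(FPKM + 0.1) and 1 with a pseudocount of 1, 5 with the length trend removed, 0 at an adjusted p under 0.01, 0 with control J and high fat G both left out, and 0 to 2 when each library was left out in turn. The median log2 fold change of complex I was 0.074 with the length trend removed, against 0.012. Of 857 values of the 43 named members under alternatives, 829 kept direction and side of the threshold or stayed within the spread, 14 moved, 14 lost a call and 0 called values changed sign; 17 members, none of them called, had a value of the other sign under some alternative. The number of all genes called in either direction, 1469, became 801 without control J, 795 without control I, 739 without high fat F, 934 without high fat A, 908 without high fat G and 417 with the pair J and G left out. It became 812 and 825 in limma on FPKM with pseudocounts of 0.1 and 1. No scaling moved the median of all genes by over 0.1. Without 1 library the median log2 fold change ran from -0.030 to 0.024 over the members, -0.015 to 0.036 in complex I, -0.053 to 0.003 in II, 0.012 to 0.053 in III, -0.010 to 0.062 in IV and -0.081 to -0.015 in V. No paired analysis was possible because the library letters differ between the diets. Members near 1 to 2 CPM, such as Cox6a2 and Cox6b2, rest on few counts and have wide intervals.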
